A study of Mus musculus with 2 samples.

Results

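The genes described here are 10 immediate early genes, *Fos*, *Fosb*, *Jun*, *Junb*, *Jund*, *Egr1*, *Atf3*, *Ier2*, *Nr4a1* and *Dusp1*, chosen by name from the 31054 features of the matrices. No rule on their values was used, but earlier results of these data were known. All 10 were found once each. They were followed in single-cell RNA sequencing (scRNAseq) of the mouse rib callus at 4 days post injury (dpi), the time at which the study asked how Hedgehog (Hh) input to Sox9+ lineage cells shapes the early callus. The control library came from *Sox9*:CreER;*R26*:tdT;*Smo* f/+ animals and the *Smo* cKO library from *Sox9*:CreER;*R26*:tdT;*Smo* f/f animals, so that the controls carried the Cre, the tdTomato reporter and 1 floxed allele as well. *Smo* encodes the membrane transducer of Hh signals. The young adult animals received tamoxifen some days before a large-scale rib resection, so that CreER acted in cells that used the *Sox9* promoter before the injury, and the calluses of 3 animals were pooled into 1 library per genotype. For both genotypes a warm digest with collagenase and dispase (37 °C, 60 minutes) came before loading, and no undigested or uninjured sample was among the libraries used here. The injury and the digestion therefore cannot be told apart as sources of these transcripts.

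Immediate early genes are transcribed within minutes of a growth factor, cytokine or stress signal, without a need for new protein synthesis. The Fos and Jun proteins pair into the transcription factor AP-1, with Atf3 as a further bZIP partner, while Egr1 is a zinc finger factor, Nr4a1 an orphan nuclear receptor, Ier2 a small nuclear protein and Dusp1 a phosphatase that switches off MAP kinases. The group is known to be raised by warm enzymatic dissociation of tissues, and also belongs to the ordinary response of cells at a wound.

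Because these genes answer to shared upstream kinases and to the factor CREB, the letters of their promoters are shown here beside the values. The RefSeq promoter table for GRCm38.p6, with 250 bases before and 50 bases after each start, held 8 of the 10 genes, and *Egr1* and *Ier2* are not shown. The CRE core TGACG, searched on both strands, stood in 6 of the 8 windows (*Atf3*, *Fosb*, *Junb*, *Fos*, *Nr4a1* and *Dusp1*) and in 20.8% of the 32851 windows of all genes. The full CRE TGACGTCA, which holds the core on both strands, stood in 1 of the 8 (*Dusp1*), against 1.79% of all windows. The AP-1 site TGANTCA was in 0 of the 8 windows against 7.81%, the TATA box sequence TATAAA in 2 (*Junb* and *Fos*) against 13.6%, and the CArG box in 0 against 1.63%. The TATAAA of *Fos* began 33 bases before the RefSeq start, while that of *Junb* began at the RefSeq start and not before it. The gene annotation begins *Junb* further downstream, at 84978718 on the minus strand, and this TATAAA lies before that base. Its position therefore depends on the start used. The stretches below run from 150 to 21 bases before the start, 5′ to 3′ on the strand of the gene, for the 5 genes with the core in that stretch, and capitals mark TGACG or its reverse complement, the full CRE of *Dusp1* and the TATA box of *Fos*.
Fos: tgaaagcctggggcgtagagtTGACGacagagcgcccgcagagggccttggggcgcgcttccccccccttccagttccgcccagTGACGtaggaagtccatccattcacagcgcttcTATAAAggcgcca
Fosb: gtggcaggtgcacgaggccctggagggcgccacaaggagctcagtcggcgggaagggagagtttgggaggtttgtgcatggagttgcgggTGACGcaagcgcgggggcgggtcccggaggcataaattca
Junb: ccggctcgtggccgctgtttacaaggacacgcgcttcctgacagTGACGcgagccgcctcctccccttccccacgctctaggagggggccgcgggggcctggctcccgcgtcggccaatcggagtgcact
Nr4a1: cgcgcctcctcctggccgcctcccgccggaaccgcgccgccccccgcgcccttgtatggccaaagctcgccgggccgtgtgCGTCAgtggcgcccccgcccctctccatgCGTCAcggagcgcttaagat
Dusp1: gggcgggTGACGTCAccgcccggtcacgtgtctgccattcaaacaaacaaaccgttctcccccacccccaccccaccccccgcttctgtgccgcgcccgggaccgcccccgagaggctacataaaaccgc

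The *Fos* stretch is chr12:85473740-85473869 on the plus strand, just before the gene at 85473890 to 85477273, and has CRE cores that begin 129 and 66 bases before the start. The *Fosb* stretch is chr7:19310066-19310195 on the minus strand, before the gene at 19302696 to 19310051, and the *Junb* stretch is chr8:84978769-84978898 on the minus strand, before the gene at 84974484 to 84978718. The *Nr4a1* stretch, chr15:101266696-101266825 on the plus strand, lies inside the annotated span of its gene (101254269 to 101274795), before an inner start. The *Dusp1* stretch, chr17:26508493-26508622 on the minus strand, also lies inside the annotated span (26505590 to 26562128). In that span 2 other annotated genes overlap on the same strand. The counts of *Dusp1* could therefore depend on how reads in the overlap were assigned, which was not examined. The match of a motif is a description of these letters and was not set against any value.

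The control library held 10747 barcodes with 105367110 unique molecular identifiers (UMIs) and the *Smo* cKO library 10512 barcodes with 112700220 UMIs. Cells with 200 or more genes and under 10% of UMIs on mitochondrial genes were kept, which left 10057 control cells (median 8367 UMIs) and 9507 *Smo* cKO cells (median 9092 UMIs). The kept cells of both libraries had 599 barcodes in common, 5.96% of those kept from the control animals and 6.30% of those kept from *Smo* cKO animals. In 504 of these the depths differed at least 5-fold, with 342 shallower in control cells and 162 shallower in the *Smo* cKO library. The genotype ratios of connective-like, macrophage or monocyte-like, neutrophil-like and muscle-like cells, the ratios of connective-like and muscle-like over macrophage or monocyte-like cells, and those of the *Sfrp4* and the *Ccl8* sets were therefore repeated without them, and the log2 ratio of the summed 10 genes in connective-like cells then went from 0.18 to 0.19. *Smo* itself had 19.1 CPM (UMIs of the gene per 1000000 UMIs of the class) in control and 12.2 CPM in *Smo* cKO connective-like cells, a log2 ratio of −0.65 (interval −0.76 to −0.54), and was lower in muscle-like cells as well, at 17.4 and 3.05 CPM from 20 and 8 UMIs. With 1 library per genotype there were no replicates, so no difference between genotypes could be tested. Levels are UMIs summed over the cells of a class and given as CPM, and all intervals are exact 95% intervals that cover counting error only.

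A cell was put in a class where it had at least 3 of 8 markers of the class and at least 2 more than of any other class. This gave 6556 control and 5519 *Smo* cKO connective-like cells, 1733 and 2096 macrophage or monocyte-like cells, 128 and 243 muscle-like cells, 88 and 120 neutrophil-like cells, 45 and 123 T or NK-like cells, 49 and 54 endothelial-like cells, and 26 and 20 mural-like cells. Further classes were cells with erythroid markers, at 0 and 19 cells, and cells with B markers, at 15 and 28, led in the control library by immunoglobulin genes and *Siglech*. The other 1417 and 1285 cells stayed unassigned. The classes differed in depth, from medians of 11399.5 and 14104 UMIs in connective-like to 2575 and 3331.5 UMIs in macrophage or monocyte-like cells, and shares of cells with a UMI are therefore given after each cell was thinned to 1000 UMIs.

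In the control library the summed level of the 10 genes lay between 2113 and 2392 CPM in 6 of the 7 classes described and was lower in muscle-like cells, while in the *Smo* cKO library the classes were further apart. In control connective-like cells they summed to 2371 CPM (interval 2361 to 2381), in macrophage or monocyte-like cells to 2197 CPM, in endothelial-like cells to 2341 CPM, in mural-like cells to 2392 CPM, in neutrophil-like cells to 2115 CPM and in T or NK-like cells to 2113 CPM. Intervals of the classes with few cells were wide, such as 1873 to 2379 CPM in neutrophil-like and 1810 to 2452 CPM in T or NK-like cells and overlapped those of most other classes, but connective-like and macrophage or monocyte-like cells (interval 2158 to 2236) did not overlap. In the *Smo* cKO library the sum was 2694 CPM in connective-like, 2197 CPM in macrophage or monocyte-like and 2409 CPM in T or NK-like cells. It was higher in endothelial-like cells, at 2961 CPM (interval 2825 to 3102), and in mural-like cells, at 3661 CPM (interval 3410 to 3925), and low in neutrophil-like cells, at 912 CPM. Muscle-like cells lay apart at 915 CPM (interval 861 to 972) in control cells and 1045 CPM in the *Smo* cKO library. The 19 erythroid cells of the *Smo* cKO library had 318 CPM (interval 213 to 457), from 29 UMIs.

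No class of the callus is known to lack these genes, so free RNA, which gives UMIs in cells that do not express a gene, was read from genes of 1 class. *Col1a1*, a collagen gene of connective cells, was present in macrophage or monocyte-like cells at 5.48% (control) and 5.23% (*Smo* cKO) of its connective level, and *Tyrobp*, a myeloid gene, in connective-like cells at 2.08% and 1.70% of its macrophage level. After thinning, *Jund* had a UMI in 11.1% of 18 erythroid cells (interval 1.38% to 34.7%), against 58.3% of 6409 control and 53.3% of 5443 *Smo* cKO connective-like cells. *Fos* had a UMI in 0 of the 18 erythroid cells (interval up to 18.5%), which at this number of cells overlaps the 17.1% of control connective-like cells.

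**Figure D1:**
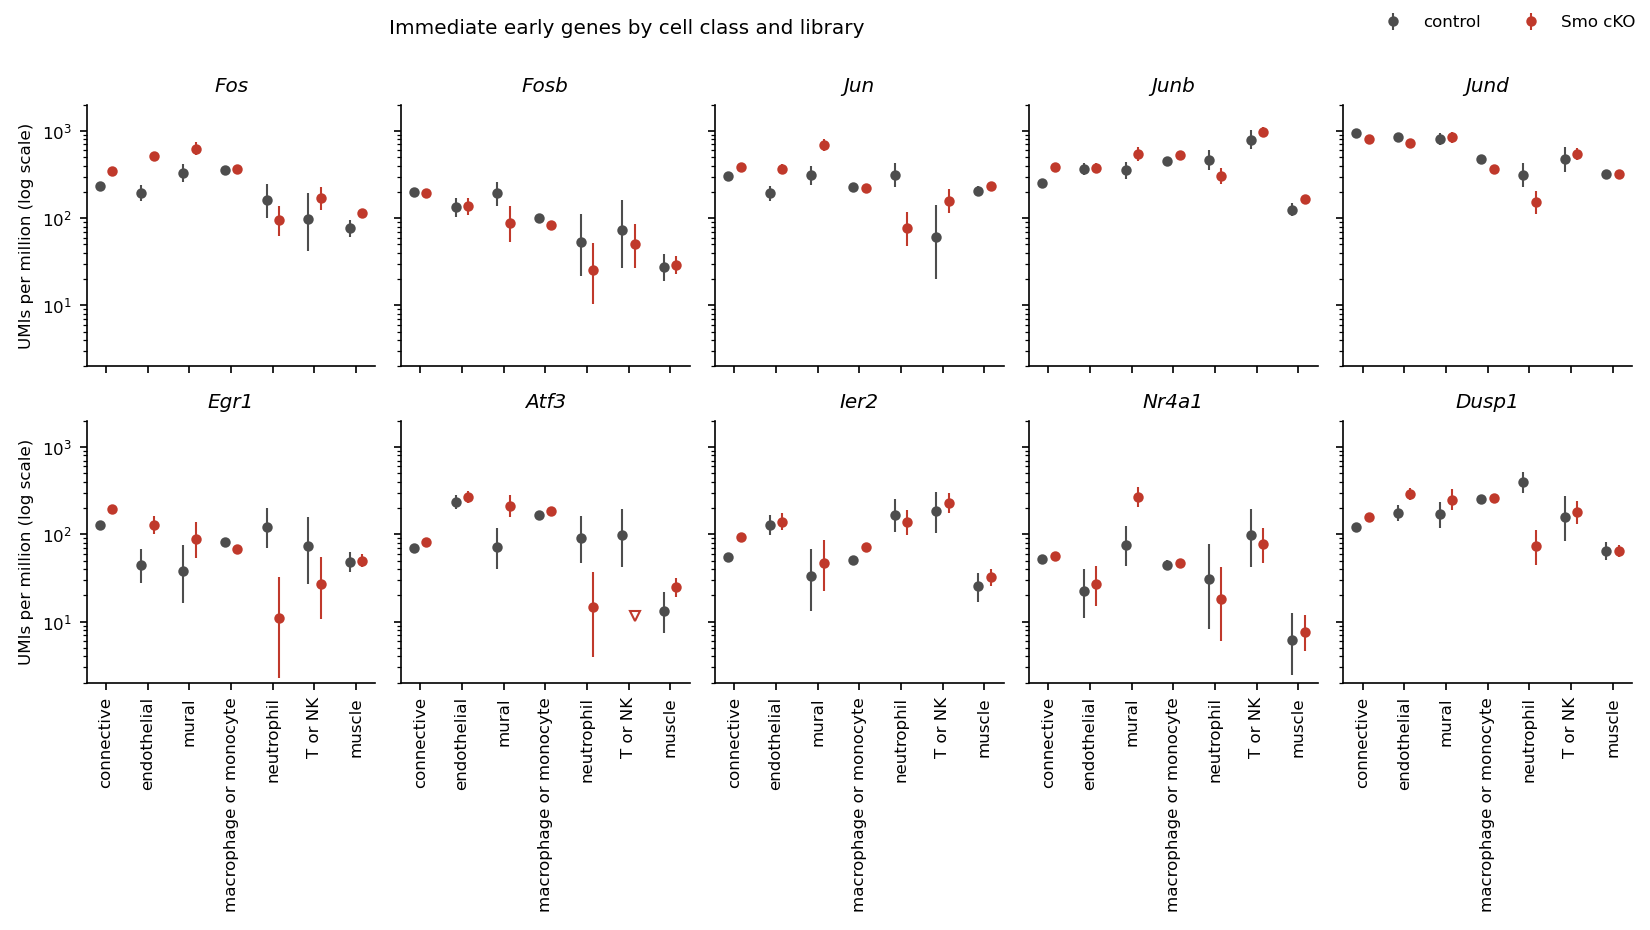
Level of each of the 10 genes (CPM, log scale) in 7 cell classes of the control (gray) and *Smo* cKO (red) library, with exact 95% Poisson intervals as bars. An open triangle marks a count of 0 (*Atf3* in *Smo* cKO T or NK-like cells), drawn at the level of 3 counts, 11.5 CPM. *Junb* is highest in T or NK-like cells of both libraries (794 and 972 CPM), *Fosb* in connective-like cells (200 and 194 CPM), and muscle-like cells are low for most genes.

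The make-up of the sum differed between classes. *Fosb* and *Jund* were more than 2-fold higher in connective-like than in macrophage or monocyte-like cells of both libraries, and *Atf3* was more than 2-fold lower. These were 2 of 10 genes higher, where 20.4% of the 2858 genes tested were, and 1 of 10 lower, where 16.6% were, so the set as a whole moved between these classes no more often than other genes did. *Jund*, the Jun gene with the steadiest expression in resting cells (chr8:70698949-70700616), had 953 and 802 CPM in connective-like cells of the control and *Smo* cKO library and 471 and 362 CPM in macrophage or monocyte-like cells, log2 ratios of 1.02 and 1.15. *Fosb* had 200 and 194 CPM against 99.1 and 83.5 CPM, ratios of 1.01 and 1.22. *Atf3* (chr1:191170296-191218039), a stress-induced repressor, had 69.9 and 82.0 CPM against 165 and 185 CPM, ratios of −1.24 and −1.18. Under 8 alternative settings of the processing the 3 genes kept their direction, but not always 2-fold. The weakest ratios of *Atf3* were −0.93 (control) and −0.25 (*Smo* cKO). Those of *Fosb* were 0.84 and 1.16, and those of *Jund* 0.91 and 1.07.

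The other genes were less than 2-fold apart in at least 1 library. *Egr1* was higher in connective-like cells, at 128 and 196 CPM against 80.8 and 67.0 CPM, by 0.66 on the log2 scale in control cells and by 1.55 in the *Smo* cKO library. *Junb*, which often opposes Jun at AP-1 sites, was lower in connective-like cells, at 252 and 382 CPM against 454 and 531 CPM, and so was the phosphatase gene *Dusp1*, at 122 and 156 CPM against 251 and 259 CPM. *Fos* had log2 ratios of −0.59 and −0.09, and in the *Smo* cKO library its direction turned with the limit of 2000 genes per cell, to 1.02. *Nr4a1* had 51.8 and 55.7 CPM against 44.9 and 46.6 CPM, ratios of 0.21 and 0.26. Under the alternative settings *Nr4a1* reached 1.07 (control) and 1.00 (*Smo* cKO). *Egr1* reached 1.44 in control cells, and *Dusp1* rose to −0.10 in the *Smo* cKO library. Which genes passed 2-fold between these classes therefore depended on the settings. *Ier2* (chr8:84661331-84662852) had 54.2 and 92.2 CPM against 50.4 and 71.5 CPM, ratios of 0.10 (interval −0.07 to 0.28) and 0.37. *Jun* had 306 and 387 CPM against 227 and 222 CPM, ratios of 0.43 and 0.80. Over the sum, the log2 ratio of connective-like over macrophage or monocyte-like cells was 0.11 (interval 0.08 to 0.14) in control cells and 0.29 (interval 0.27 to 0.32) in the *Smo* cKO library. In the control it was −0.03 with a stricter gate of at least 4 markers and 3 more than any other class, so that its direction rests on the gate. The interval covers counting error only, and with 1 library it says nothing of the spread between animals.

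Muscle-like cells were low for most of the group but not for *Jun*. Against macrophage or monocyte-like cells, 5 of the 9 genes tested (*Fos*, *Fosb*, *Junb*, *Atf3* and *Dusp1*) were more than 2-fold lower in both libraries, where 24% of the 2749 genes tested were, and 0 of 9 were higher, where 16% were. *Fosb* and *Atf3* of these 5 reached 50 CPM in macrophage or monocyte-like cells alone, so that the count is a description only. *Atf3* had 13.1 and 24.7 CPM in muscle-like cells, log2 ratios of −3.66 and −2.90, and *Fos* had 76.6 and 115 CPM, ratios of −2.20 and −1.69. *Jun* (chr4:95049034-95052222), the main AP-1 partner of Fos, had 204 and 236 CPM in muscle-like cells, against 227 and 222 CPM in macrophage or monocyte-like cells. The log2 ratios of *Jun* were −0.16 (interval −0.37 to 0.04) and 0.09 (interval −0.05 to 0.22), so that the classes were not distinguished by this gene at this depth. *Nr4a1* was at 6.09 and 7.61 CPM in muscle-like cells, from 7 and 20 UMIs.

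T or NK-like cells had the highest *Junb*, at 794 CPM (65 UMIs) in control cells and 972 CPM (253 UMIs) in the *Smo* cKO library. *Ier2* was also highest there, at 183 and 231 CPM, although in the control library its interval overlapped that of neutrophil-like cells (168 CPM). Among T or NK-like cells *Junb* gave 37.6% and 40.4% of the UMIs of the group, against 10.6% and 14.2% in connective-like cells, where *Jund* gave 40.2% and 29.8%. *Atf3* was found with 8 UMIs among 45 control T or NK-like cells and with 0 among 123 of the *Smo* cKO library. Against macrophage or monocyte-like cells 1 of 10 genes (*Ier2*) was 2-fold higher in both libraries in T or NK-like cells, where 11.4% of genes were, and 1 (*Fos*) lower, where 16.5% were. Between genotypes this class had *Jun* 2-fold higher (5 and 41 UMIs), where 6.94% of genes were, and *Egr1* (6 and 7 UMIs) and *Atf3* lower, where 13.1% were, with counts under 3 set to 3. Both *Egr1* and *Atf3* reached 50 CPM in the control library alone, so that this count is a description only. Endothelial-like cells had the highest *Atf3* of the 6 classes ordered, at 235 and 265 CPM. Mural-like cells, cells of the B gate and erythroid cells were too few to be ordered. Of the genes tested against macrophage or monocyte-like cells, 0 of 9 passed 2-fold in both libraries in endothelial-like cells (18.4% of genes were higher and 14.3% lower) and 0 of 10 in mural-like cells (17.8% and 16.9%). In neutrophil-like cells 0 of 9 were higher, where 8.82% were, and 1 (*Fos*) was lower, where 29.8% were. In cells of the B gate 1 of 9 (*Jund*) was higher, where 7.01% were, and 3 (*Fos*, *Atf3* and *Dusp1*) were lower, where 11.3% were. *Atf3* had 1 UMI in control cells of the B gate and reached 50 CPM in that library in macrophage or monocyte-like cells alone, so that this count is a description only. Between genotypes 1 of 10 (*Junb*, 6 and 32 UMIs) was 2-fold higher in cells of the B gate, where 6.81% were, and 0 lower, where 14.9% were, on 79 and 135 UMIs of the whole group.

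To ask whether the genotypes differed, the level of each gene in the *Smo* cKO library was divided by that in the control library within each class. In connective-like cells 8 of the 10 genes were higher in the *Smo* cKO library beyond counting error and 2 were lower. At this depth small ratios clear their intervals, and 53.7% of the 2566 genes at 50 CPM or more were higher by the same rule and 31% lower, so the counts alone do not set the group apart. None reached 2-fold, where 0.74% of all genes tested were 2-fold higher and 0.156% were 2-fold lower, and the median log2 ratio over the 10 genes was 0.34 against 0.06 over all genes tested. The largest ratio was that of *Ier2*, with 54.2 and 92.2 CPM and a log2 ratio of 0.76 (interval 0.71 to 0.82). *Egr1* had a ratio of 0.62, *Junb* of 0.60, *Fos* of 0.56, *Dusp1* of 0.35 and *Jun* of 0.34. Among all genes tested in this class *Ier2* was at the 98.8th percentile of the ratio, *Egr1* at the 98.1th and *Fos* at the 97.7th.

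Over the class as a whole, the 2 genes that went the other way were *Jund* and *Fosb*, though not in each of the marker sets described below. *Jund* had a log2 ratio of −0.25 (interval −0.26 to −0.23) in connective-like cells, at the 7.56th percentile, and *Fosb* one of −0.04 (interval −0.07 to −0.01), below the median gene. *Fosb* changed sign with the upper limit of 2000 genes per cell that the methods of the study use, to 0.26, and the ratio of *Fos* then reached 1.13, the 1 gene past 2-fold under that limit. The share of all genes past 2-fold under that limit was not counted. *Atf3* had a ratio of 0.23 and *Nr4a1* one of 0.10. The interval of *Nr4a1*, 0.05 to 0.16, held the median gene at 0.06, and its ratio was 0.00 both with that limit and as a mean over cells. Summed over the group, the ratio was 0.18 (interval 0.18 to 0.19), a sum in which *Jund*, with the most UMIs, was lower and most others higher.

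**Figure D2:**
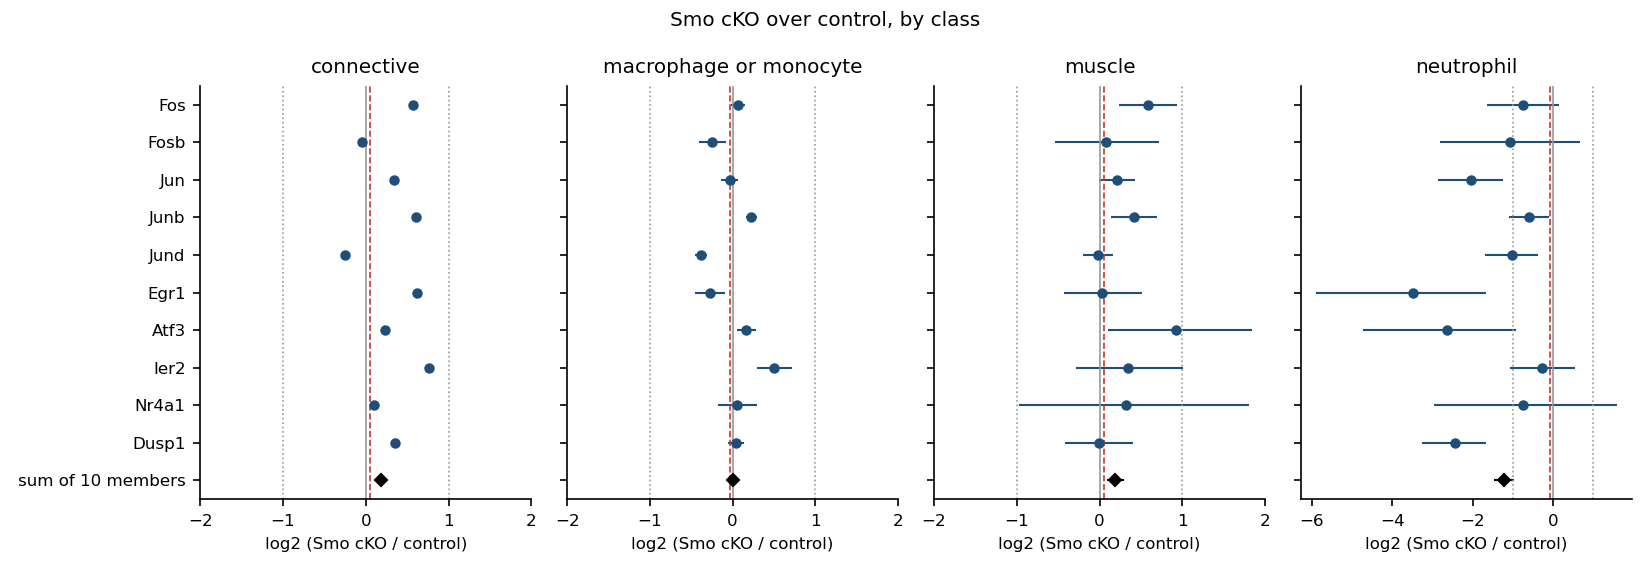
Log2 ratio of *Smo* cKO over control for each gene (circles) and for the sum of the 10 (diamonds) in 4 classes, with exact 95% intervals as bars, dotted lines at 2-fold and a red dashed line at the median gene of the class. The first 3 panels run from −2 to 2 and the neutrophil panel has a wider axis. In connective-like cells 8 genes lie above 0 with *Ier2* at 0.76, in macrophage or monocyte-like cells the sum is at 0.00, and in neutrophil-like cells all 10 lie below 0.

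In macrophage or monocyte-like cells the group as a whole was level between the libraries, with 2197 CPM in both and a log2 ratio of the sum of 0.00 (interval −0.03 to 0.03). Of the 9 genes at 50 CPM or more, 3 were higher beyond counting error (*Ier2*, *Junb* and *Atf3*), and 3 were lower (*Jund*, *Egr1* and *Fosb*), where 25% of the 2487 genes tested were higher and 33.4% lower by this rule. None of the 9 reached 2-fold, where 1.61% of genes were 2-fold higher and 0.121% lower. *Ier2* was again the gene with the largest ratio, at 50.4 and 71.5 CPM and 0.50 (interval 0.30 to 0.71), and *Jund* again had the lowest, at 471 and 362 CPM and −0.38 (interval −0.46 to −0.31). *Egr1* went against its direction in connective-like cells, at −0.27 (interval −0.45 to −0.09). *Fos*, at 353 and 369 CPM, had a ratio of 0.07 (interval −0.02 to 0.15).

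Muscle-like cells had a summed ratio of 0.19 (interval 0.09 to 0.29), with *Fos* at 0.58 (interval 0.23 to 0.94) and *Junb* at 0.41 (interval 0.14 to 0.69) as the 2 of 5 genes at 50 CPM or more above counting error, where 16.2% of 2354 genes were and 11% were below. Of the 5 genes 0 were at 2-fold, where 0.892% of genes were higher and 0.127% lower. Endothelial-like cells had 2 of 9 genes 2-fold higher, *Fos* at 1.39 and *Egr1* at 1.54, where 3.67% of 3078 genes were, and 0 of 9 lower, where 1.85% were. Mural-like cells had 4 of 9 higher, where 9.31% of 3008 genes were, namely *Nr4a1* (1.83), *Atf3* (1.59), *Egr1* (1.22) and *Jun* (1.15), and *Fosb* lower at −1.14, where 7.28% were. The mural values rest on 26 and 20 cells. *Egr1* in mural-like cells had only 8 and 19 UMIs, with an interval of −0.04 to 2.62. In both endothelial-like and mural-like cells *Egr1* reached 50 CPM in the *Smo* cKO library alone, so that these counts are descriptions only.

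Neutrophil-like cells were the class in which the group was lower in the *Smo* cKO library. The sum was 2115 CPM in 88 control cells and 912 CPM in 120 *Smo* cKO cells, a log2 ratio of −1.21 (interval −1.47 to −0.96), from 277 and 250 UMIs. *Dusp1* had 52 and 20 UMIs, a ratio of −2.44 (interval −3.27 to −1.68), *Jun* had 41 and 21 UMIs, a ratio of −2.03 (interval −2.86 to −1.24), and *Egr1* had 16 and 3 UMIs, a ratio of −3.48 (interval −5.90 to −1.68). Of the 9 genes at 50 CPM or more, 6 were at least 2-fold lower, where 12.7% of 2078 genes were, and 0 were 2-fold higher, where 8.85% were. *Fosb*, *Egr1* and *Atf3*, 3 of these 6, reached 50 CPM in the control library alone, so that the count is a description only. *Junb* and *Ier2* were closer between the libraries, at 61 and 84 UMIs (−0.60) and at 22 and 38 UMIs (−0.28). With a looser gate of at least 2 markers and 1 more than any other class the summed ratio was −0.68.

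Other values of neutrophil-like cells are given beside this difference, without intervals, and some rest on few UMIs. The summed CPM of the 8 connective markers in neutrophil-like cells was 458 in control cells and 339 in the *Smo* cKO library, and that of the 8 macrophage or monocyte markers 3871 and 4146. The granule genes *Ngp* and *Camp*, which are transcribed in less mature neutrophils, had 14994 and 25335 CPM and 18804 and 21980 CPM, and *Ltf* had 1756 and 2480 CPM. Of 3 receptors of more mature neutrophils, *Cxcr2* had 176 and 124 CPM (23 and 34 UMIs) and *Csf3r* 153 and 128 CPM (20 and 35 UMIs), while *Il1r2* went the other way, with 542 and 664 CPM. All 3 are among the 8 markers of the neutrophil gate, so that their levels depend on the gate. Median depth was 1099.5 and 1613 UMIs, and cells thinned to 1000 UMIs held a mean of 1.47 of the 10 genes in 49 control and 0.92 in 93 *Smo* cKO cells. The part of these values in the lower level of the group was not tested.

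Within the connective-like cells the group was far from even. A cell was put in a set where it had at least 2 of the 4 markers of the set and more than of any other set of its class. Cells with at least 2 of the genes *Sfrp4*, *Eln*, *Col14a1* and *Ptx3*, a fibroblast profile of loose connective tissue, had 4411 CPM (interval 4370 to 4453) in 1273 control cells and 4866 CPM in 549 *Smo* cKO cells. Cells with at least 2 of *Tnc*, *Inhba*, *Timp1* and *Loxl2*, an activated matrix profile, had 1720 CPM (interval 1708 to 1732) in 3070 control and 2113 CPM in 3212 *Smo* cKO cells. The summed log2 ratio between these was 1.36 (interval 1.34 to 1.38) in control cells and 1.20 (interval 1.18 to 1.22) in the *Smo* cKO library. Another set, with at least 2 of *Fmod*, *Acan*, *Col11a1* and *Aspn*, genes of skeletogenic matrix, had 3115 CPM in 251 control and 5196 CPM in 178 *Smo* cKO cells. The marker lists came from earlier groupings of these same cells, so these levels are a description.

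In the *Sfrp4* *Eln* *Col14a1* set 7 of the 10 genes were at least 2-fold above the *Tnc* *Inhba* set in both libraries, where 6.12% of 2580 genes were, and 0 of 10 were 2-fold below, where 4.88% were. The 7 were *Fos*, *Fosb*, *Jun*, *Egr1*, *Atf3*, *Nr4a1* and *Dusp1*. Of these, *Nr4a1* reached 50 CPM in the *Sfrp4* set alone. *Nr4a1* had 154 against 29.0 CPM in the control, a log2 ratio of 2.41 (interval 2.31 to 2.52), and 128 against 39.7 CPM in the *Smo* cKO library, a ratio of 1.69 (interval 1.56 to 1.82). *Fos* had 490 against 127 CPM and 761 against 218 CPM, ratios of 1.95 and 1.81, and *Fosb* had ratios of 1.97 and 1.56. *Junb* and *Jund* passed 2-fold in the control alone (1.04 and 1.12, against 0.90 and 0.92 in the *Smo* cKO library), and *Ier2* had the lowest ratios of the group, 0.80 and 0.66.

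In the skeletogenic set, of 9 genes tested, 4 (*Fos*, *Jun*, *Atf3* and *Dusp1*) were at least 2-fold above the *Tnc* *Inhba* set in both libraries, where 3.38% of 2541 genes were, and 0 of 9 were 2-fold below, where 1.53% were. *Fos* was at 483 against 127 CPM in control cells and 1132 against 218 CPM in the *Smo* cKO library, ratios of 1.93 and 2.38, and *Dusp1* had ratios of 1.77 and 1.92. *Jund* had ratios of 0.10 in control cells and 0.46 in *Smo* cKO cells. *Nr4a1*, the gene with the widest ratio in the *Sfrp4* set of control cells, was at −0.09 (interval −0.46 to 0.26) in control cells but at 0.97 (interval 0.71 to 1.22) in *Smo* cKO cells, so that the mix was not the same in both libraries. Between genotypes this set also had the widest difference of the connective sets, with a summed ratio of *Smo* cKO over control of 0.74 (interval 0.69 to 0.78) and of 1.75 for *Egr1*, against 0.30 in the *Tnc* *Inhba* set and 0.14 in the *Sfrp4* set. *Fosb* had ratios of 0.56 here, 0.26 in the *Tnc* *Inhba* set and −0.16 in the *Sfrp4* set. Those of *Jund* were 0.20, −0.15 and −0.36. The *Sfrp4* set was 19.4% of control and 9.95% of *Smo* cKO connective-like cells. The part of these shares in the ratios of the whole class was not tested. Whether the ratios differ between sets was not tested, since each rests on 1 library per genotype.

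**Figure D3:**
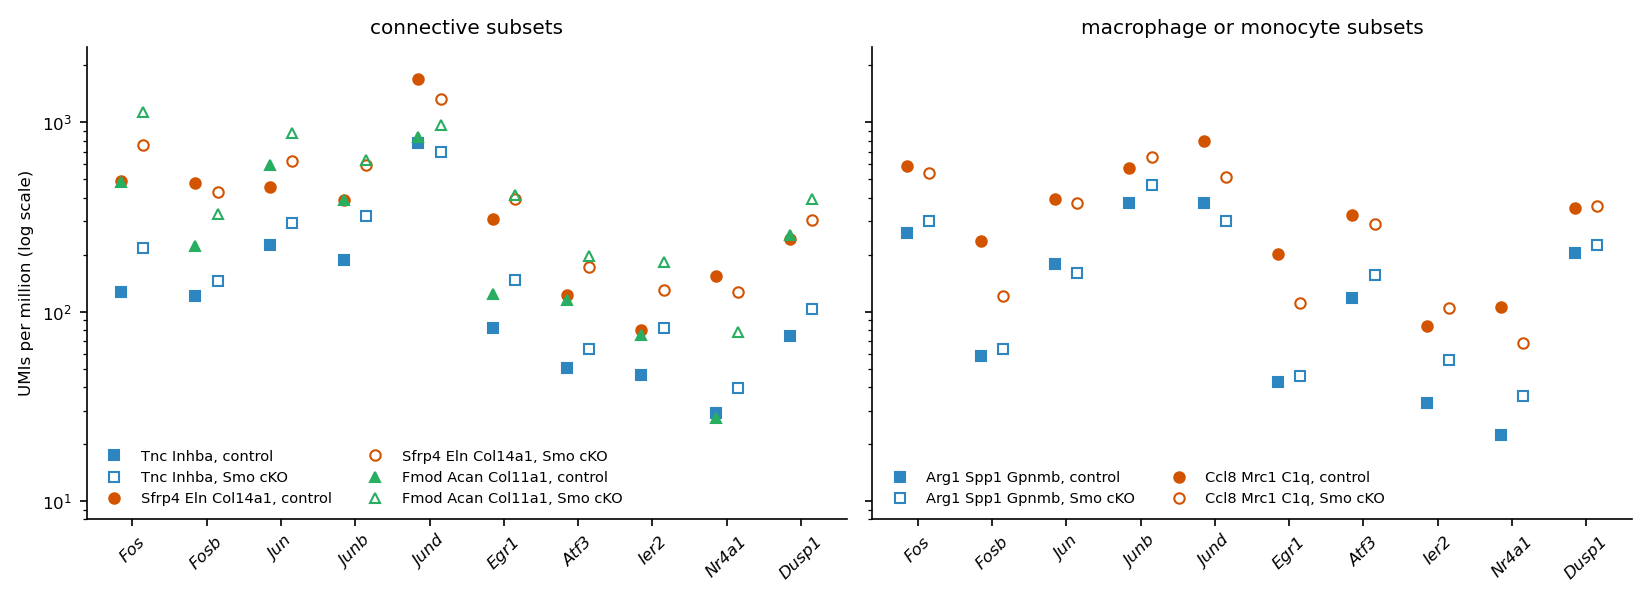
Level of each gene (CPM, log scale) in 3 marker-defined sets of connective-like cells (left) and 2 sets of macrophage or monocyte-like cells (right), with filled symbols for control and open symbols for *Smo* cKO. Counting intervals are not drawn. In both libraries all 10 genes are higher in the *Sfrp4* *Eln* *Col14a1* set (orange) than in the *Tnc* *Inhba* set (blue), from 0.66 to 2.41 on the log2 scale, and higher in *Ccl8* *Mrc1* C1q than in *Arg1* *Spp1* *Gpnmb* macrophages.

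The sets also differed in depth, with median UMIs of 7488 in the *Sfrp4* set and 13942.5 in the *Tnc* *Inhba* set of the control library and of 8049 and 15685.5 in the *Smo* cKO library. Cells with 200 to 2000 genes had higher levels of the group than cells with more genes, at 3822 against 2254 CPM in control and 4763 against 2618 CPM in *Smo* cKO connective-like cells. Within cells of 200 to 2000 genes the *Sfrp4* set had 4376 CPM and the *Tnc* *Inhba* set 2747 CPM in the control library, and 5349 and 3828 CPM in the *Smo* cKO library. Within cells of over 2000 genes the values were 4429 and 1686 CPM, and 4759 and 2077 CPM. The difference had the same direction within each range of genes and was smaller in the shallower cells, and with the limit of 2000 genes per cell the summed ratio was 0.67 in control cells and 0.48 in the *Smo* cKO library. Median mitochondrial share was 2.63% in the *Sfrp4* set and 2.25% in the *Tnc* *Inhba* set of the control library. Under 2.5% were 504 of 1273 and 1995 of 3070 of these cells. Within cells under 2.5% the 2 sets had 4378 and 1584 CPM in the control library, and 5353 and 2023 CPM in the *Smo* cKO library. Within cells at 2.5% or more they had 4438 and 2089 CPM, and 4367 and 2471 CPM. The part of mitochondrial share in these levels was not tested. After thinning to 1000 UMIs, the *Sfrp4* set had a mean of 2.64 of the 10 genes per cell and the *Tnc* *Inhba* set 1.39 in the control library, and 2.98 and 1.73 in the *Smo* cKO library.

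**Figure D4:**
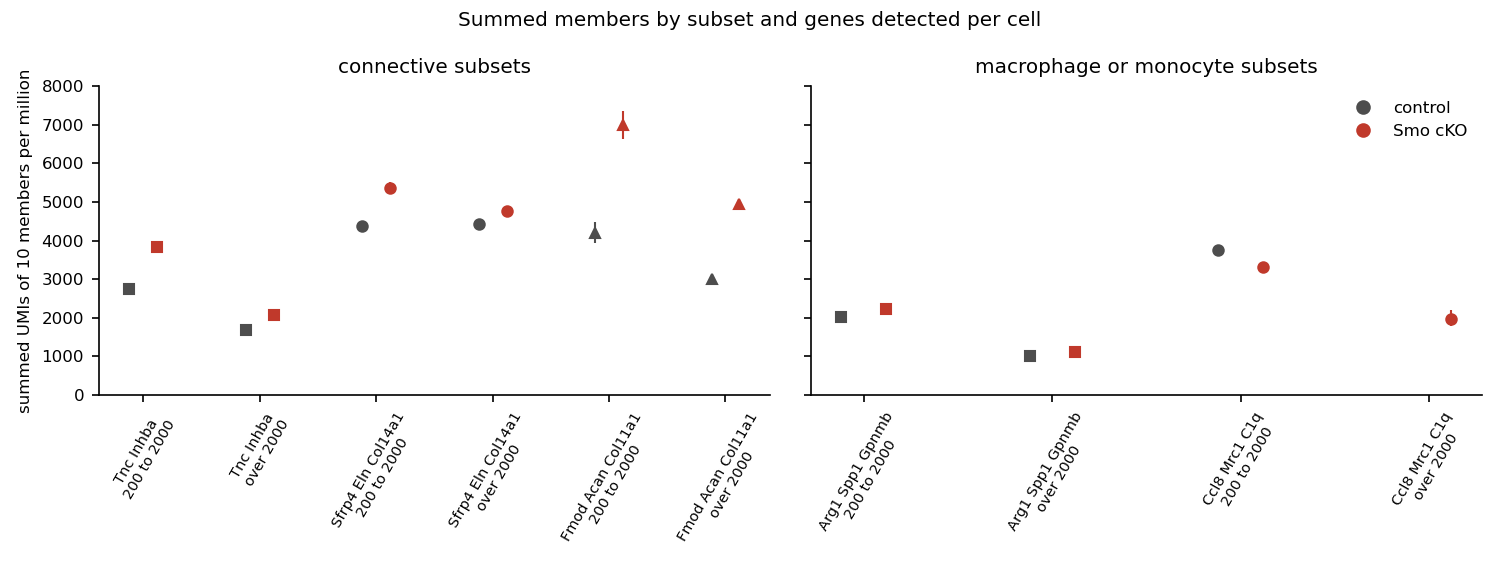
Summed level of the 10 genes (CPM, linear axis from 0) by set and by number of genes detected per cell, for control (gray) and *Smo* cKO (red), with exact 95% Poisson intervals as bars. Groups under 20 cells are not drawn. In cells of over 2000 genes the *Tnc* *Inhba* set has 1686 and 2077 CPM and the *Sfrp4* *Eln* *Col14a1* set 4429 and 4759 CPM.

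Macrophages were divided in the same way. Cells with at least 2 of *Ccl8*, *Mrc1*, *C1qc* and *Folr2*, a resident-like profile, had 3658 CPM (interval 3545 to 3773) in 418 control and 3149 CPM in 412 *Smo* cKO cells. Cells with at least 2 of *Arg1*, *Spp1*, *Gpnmb* and *Fabp5*, a wound-type profile, had 1666 CPM (interval 1614 to 1718) in 638 control and 1811 CPM in 1008 *Smo* cKO cells. The log2 ratio was 1.13 in control cells and 0.80 in the *Smo* cKO library, and 2 of 10 genes (*Jun* and *Egr1*) passed 2-fold in both libraries, where 4.47% of 2396 genes did, while 0 of 10 were 2-fold lower, where 1.88% were. *Egr1* had ratios of 2.25 and 1.29 and *Jun* of 1.15 and 1.24, while *Junb* was the most even, at 0.62 and 0.50. Of the genes past 2-fold, *Egr1* reached 50 CPM in the *Ccl8* set alone. Median depths of these sets were 2325.5 and 2887 UMIs in the control library, but the *Arg1* set held more deep cells. Its 89 control cells of over 2000 genes had 1021 CPM and its 549 cells of 200 to 2000 genes 2009 CPM. Within cells of 200 to 2000 genes the *Ccl8* and *Arg1* sets had 3761 and 2009 CPM in the control library. In the *Smo* cKO library these were 3325 and 2230 CPM, so the direction held.

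In *Ccl8* *Mrc1* C1q macrophages the summed ratio of *Smo* cKO over control was −0.22 (interval −0.28 to −0.15), with *Fosb* at −0.95 and *Egr1* at −0.85. In *Arg1* *Spp1* *Gpnmb* macrophages it was 0.12 (interval 0.07 to 0.18), with *Ier2* at 0.76. The difference between the sets was not tested. In muscle-like cells, those without a *Myog* UMI but with *Pax7* or *Myf5*, the profile of satellite cells, had 1161 CPM (31 cells) and 1319 CPM (56 cells), and those with *Myog*, which marks differentiation, 846 CPM (85 cells) and 982 CPM (175 cells). Only *Fosb* of the 6 genes tested passed 2-fold in both libraries, on 16 and 14 UMIs in the control, where 3.39% of 2331 genes did, and 0 of 6 were 2-fold lower, where 5.49% were. *Fosb* reached 50 CPM in the cells without *Myog* alone.

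Cell by cell the 10 genes were found together more often than if unrelated, in connective-like and in macrophage or monocyte-like cells. Correlations between pairs of them were low. Each cell thinned to 1000 UMIs held a mean of 1.83 of the 10 genes in control and 2.10 in *Smo* cKO connective-like cells, 1.81 and 1.83 in macrophage or monocyte-like cells, 0.83 and 1.08 in muscle-like cells and 0.22 in erythroid cells. In connective-like cells 5 or more genes were found in 6.51% (interval 5.91% to 7.14%) of control and 10.2% (interval 9.39% to 11.01%) of *Smo* cKO cells, and none in 18.3% and 16.3%. If each gene kept its share of cells but was unrelated to the others, 5 or more would be found in 1.48% and 3.13%. None would then be found in 10.6% and 7.95%. The part of different sets of cells in this excess was not tested. In macrophage or monocyte-like cells 5 or more were found in 6.69% and 5.87%, with overlapping intervals, against 1.65% and 1.74% if unrelated. The 10% of cells with the most UMIs of the group held 33.8% and 35.3% of them in connective-like cells, so that the other cells held most.

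**Figure D5:**
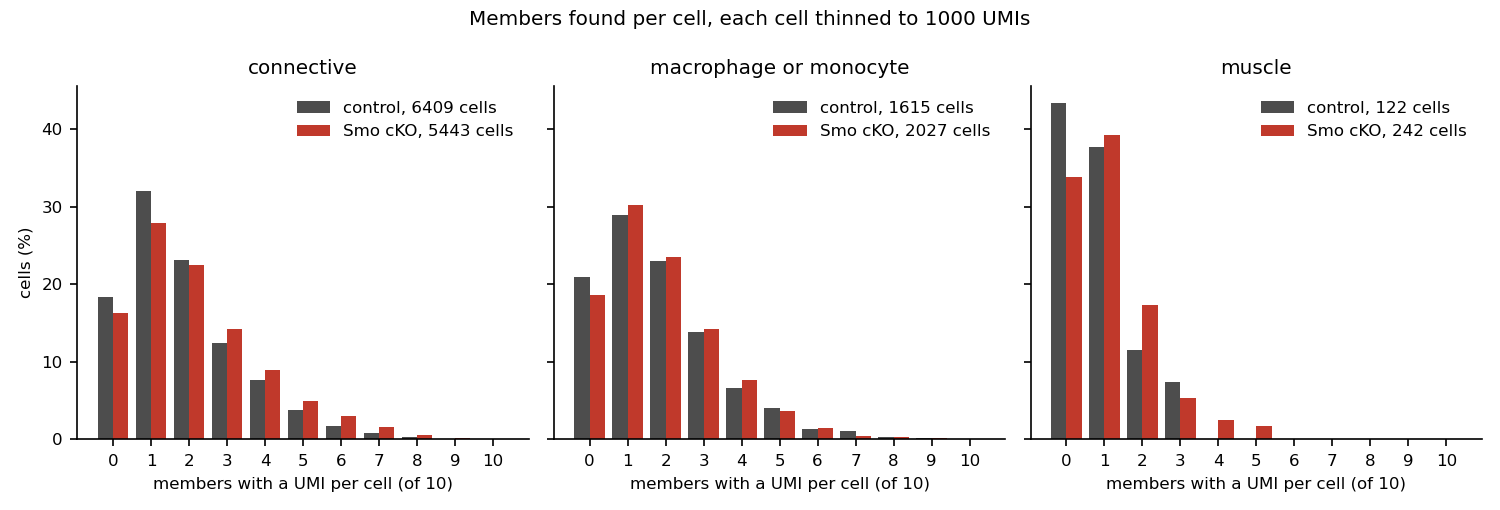
Share of cells (%) by the number of the 10 genes with a UMI, for control (gray) and *Smo* cKO (red) cells thinned to 1000 UMIs, in 3 classes. No gene was found in 18.3% and 16.3% of connective-like, 20.9% and 18.7% of macrophage or monocyte-like and 43.4% and 33.9% of muscle-like cells. Cells with many genes form a thin tail, and at 1000 UMIs per cell these shares cannot show whether a separate group exists.

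Pearson correlations of ln(1 + UMI) between the genes over thinned cells are given as a description, since cells of a library share its handling and depth. In connective-like cells the median over the 45 pairs was 0.11 in 6409 control and 0.13 in 5443 *Smo* cKO cells, and in macrophage or monocyte-like cells 0.11 and 0.10. None of the 45 pairs was below 0 in these classes, and *Fos* with *Jun* was the highest pair in connective-like cells, at 0.33 and 0.43. In muscle-like cells 14 pairs among 122 control cells and 17 among 242 *Smo* cKO cells were below 0, with medians of 0.00 and 0.04. *Atf3* and *Nr4a1* had a UMI in 0% of these control cells, so their pairs have no value there. The control count and median therefore cover fewer than 45 pairs. *Fos* with *Fosb* reached 0.53 in the control library, where *Fos* had a UMI in 5.74% and *Fosb* in 2.46% of the muscle-like cells, so this value rests on few cells. Against the sum of the other 9 genes *Fos* had 0.33 and 0.43 in connective-like cells, and *Ier2* had 0.09 and 0.18. *Ier2*, the gene with the largest genotype ratio in these cells, thus had the lowest value in the control library. It was also the gene found in the fewest of these control cells, 5.24% after thinning. In the *Smo* cKO library it was found in 9.09%, and *Nr4a1* (0.14) and *Jund* (0.17) had lower correlations. The part of low detection in these values was not tested.

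Among 1467 other genes found in at least 5% of thinned cells, those most like the summed 10 genes from cell to cell were *Zfp36*, *Klf2*, *Klf6*, *Malat1*, *Btg2*, *Klf4*, *Nfkbia*, *Zfp36l1*, *Ier5* and *Selenop*, ranked by the lowest correlation over connective-like and macrophage or monocyte-like cells of both libraries. *Zfp36*, which encodes an mRNA decay factor, had 0.24 and 0.29 in control and *Smo* cKO connective-like cells and 0.31 and 0.33 in macrophage or monocyte-like cells. *Malat1*, a nuclear noncoding RNA, had 0.33 and 0.30 in connective-like cells. Across 16 points of 8 classes and 2 libraries, the genes whose level most followed the mean of the group were *Mgat2*, *Mtpn*, *Cfl1*, *Elovl1*, *Lasp1*, *Rela*, *Jag1*, *Maff*, *Pcbd2* and *Hif1a*, with r from 0.82 to 0.74 among 5558 genes, and 1 of these, *Maff*, belongs to the early gene lists.

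Other genes of the early response were read from 3 lists. Of 14 other AP-1 and early transcription factors, 6 were at 50 CPM or more in connective-like cells, with 3 higher and 3 lower in the *Smo* cKO library beyond counting error, 0 past 2-fold and a median log2 ratio of −0.09. *Klf4*, a zinc finger factor, had the lowest ratio, at 231 and 141 CPM and −0.71, and *Csrnp1* had the highest ratio, 0.41. Of 16 early feedback regulators, 13 were at 50 CPM or more, 9 higher and 1 lower, with a median of 0.41. Over all genes tested the median was 0.06, with 53.7% higher and 31% lower by the same rule. *Cyr61*, a matricellular target of YAP and of serum response factor, was the 1 past 2-fold, at 92.5 and 189 CPM and 1.03 (interval 0.99 to 1.07), followed by *Btg2* at 0.76 and *Zfp36* at 0.71.

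Of 14 heat shock and dissociation genes, 12 were at 50 CPM or more in connective-like cells, 10 higher and 1 lower, with a median of 0.27, against the same 53.7% and 31% over all genes. *Hspa1a*, the inducible Hsp70 gene, had 27.7 and 77.6 CPM and a ratio of 1.49 (interval 1.42 to 1.56), while *Mcl1*, a survival gene, was at −0.57. In macrophage or monocyte-like cells the same list had 13 genes at 50 CPM or more, 4 higher and 5 lower, with a median of 0.04, where 25% of all genes were higher and 33.4% lower, and *Hspa1a* was at 269 and 219 CPM, a ratio of −0.30. Beside these medians of the heat shock list, those of the 10 genes were 0.34 in connective-like and 0.04 in macrophage or monocyte-like cells. In neutrophil-like cells the median was 0.10 over 10 heat shock genes and −1.07 over the 9 of the 10 genes at 50 CPM or more. The former rests in part on low counts, such as *Hspb1* (0 and 20 UMIs) and *Hspd1* (3 and 16 UMIs). Over thinned connective-like cells, correlations of heat shock genes with the summed 10 genes ran from −0.15 (*Hsp90ab1*) to 0.10 (*Hspa1a*) in the control library. In the *Smo* cKO library they ran from −0.13 to 0.22 for the same 2 genes. The part of the list in the values of the 10 genes was not tested. Feedback regulators in macrophage or monocyte-like cells were 9 higher and 2 lower of 13 against the same 25% and 33.4%, with a median of 0.26 and *Socs3*, an inhibitor of cytokine signaling, at 153 and 299 CPM.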

How the data were processed

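Control and *Smo* cKO rib callus cells at 4 dpi were analyzed, 1 library each, pooled from 3 animals. Per the submitters' processing notes the authors used Cell Ranger 3.0.2 with mm10, and the files deposited are matrices of unnormalized UMI counts. Cells with 200 or more genes and mt- genes under 10% of UMIs were kept. No doublet caller was run. The marker margin leaves out cells with markers of 2 classes, and the authors' limit of 2000 genes per cell is an alternative. Genes, markers and lists were chosen with earlier results of these data known, and all 10 genes are named. UMIs were summed by class and library to CPM. Genes at 50 CPM or more in either group compared were tested for a 2-fold ratio, with exact intervals for a ratio of Poisson counts, exact Clopper-Pearson intervals for shares, and counts under 3 set to 3 in the 2-fold calls. No p-value was computed. Cells were thinned without replacement to 1000 UMIs. Likeness to the group used cells of both main classes, or log2(CPM + 10) over classes. The ratio rule was tested on simulated data. Python 3.11.15, numpy 2.4.6, scipy 1.17.1 and pandas 2.3.3 were used. Coordinates are on GRCm38, and promoters are from RefSeq (GRCm38.p6). Alternatives varied the filters, gate, scaling, fold, CPM minimum and thinning.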

Additional observations from a re-analysis of the deposited data

Results flagged for a closer look

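The log2 ratio of *Smo* cKO over control had opposite signs, each beyond counting error, in 19 pairs of a gene and 2 classes among the 8 classes found in both libraries. None of these differences was tested, since each class has 1 library per genotype. The share of all genes with such pairs was not counted, so the 19 do not set this group apart. In connective-like cells 53.7% of genes tested were higher beyond counting error and 31% lower. In macrophage or monocyte-like cells 25% were higher and 33.4% lower. Outside neutrophil-like cells there were the 2 pairs of *Egr1*, which was lower in macrophage or monocyte-like *Smo* cKO cells. Connective-like minus macrophage or monocyte-like cells gave 0.89 and macrophage or monocyte-like minus endothelial-like cells −1.81. The others involve neutrophil-like cells, where the counts were low. Connective-like minus neutrophil-like cells gave 4.10 for *Egr1*, 2.88 for *Atf3*, 2.80 for *Dusp1*, 2.37 for *Jun* and 1.21 for *Junb*. Macrophage or monocyte-like minus neutrophil-like cells gave 2.82 for *Atf3* and 0.83 for *Junb*. Neutrophil-like minus endothelial-like cells gave −5.02 for *Egr1*, −3.16 for *Dusp1* and −2.94 for *Jun*, and minus mural-like cells −4.24 for *Atf3*, −3.19 for *Jun* and −1.22 for *Junb*. Neutrophil-like minus muscle-like cells gave −3.57 for *Atf3* and −1.02 for *Junb*, minus T or NK-like cells −3.40 for *Jun*, and minus cells of the B gate −2.55 for *Junb*.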

How the results depend on the processing

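Of 430 values of single genes under up to 9 alternatives, 416 kept their sign and 339 stayed within the interval of the reported value. No paired analysis was possible because each genotype has 1 library, and no library could be left out. The median ratio over all genes gave 0.06 in connective-like and −0.03 in macrophage or monocyte-like cells. The cause of the shifts that follow was not tested. With at most 2000 genes per cell the summed log2 ratio of *Smo* cKO over control was 0.32 in connective-like cells (1 gene 2-fold higher) and 0.37 in muscle-like cells (2 genes), that of connective-like over macrophage or monocyte-like cells 0.60 (control) and 0.89 (*Smo* cKO), that of muscle-like over macrophage or monocyte-like cells −0.86 (*Smo* cKO), that of the *Sfrp4* over the *Tnc* set 0.67 and 0.48, and that of the *Ccl8* over the *Arg1* set 0.90 and 0.58. In the same order, the looser gate gave *Smo* cKO over control of 0.034 in macrophage or monocyte-like, −0.68 in neutrophil-like and 0.32 in muscle-like cells, class ratios of 0.22, 0.37 and −0.89, and 0.89 for the *Ccl8* set of the *Smo* cKO library. The stricter gate gave −0.075 in macrophage or monocyte-like cells, −0.028 and 0.23 for connective-like over macrophage or monocyte-like cells, and 1.03 and 0.70 for the *Ccl8* set. The mean over cells of each cell's CPM gave 0.20 in connective-like cells, 1.20 and 1.12 for the *Sfrp4* set, and 0.88 and 0.66 for the *Ccl8* set. CPM outside mitochondrial and ribosomal protein genes gave 0.13 in connective-like and −0.047 in macrophage or monocyte-like cells, 0.16 and 0.34 for connective-like and −0.996 and −0.82 for muscle-like over macrophage or monocyte-like cells, 1.46 and 1.23 for the *Sfrp4* set, and 1.05 and 0.74 for the *Ccl8* set. Scaling by the median gene gave 0.13 in connective-like and 0.034 in macrophage or monocyte-like cells, and at 1.5-fold 3 genes were higher in connective-like cells. Chosen after seeing the data were the set ratios under each setting and the removal of barcodes found in both libraries, which gave 0.33 for connective-like over macrophage or monocyte-like cells and 1.18 for the *Sfrp4* set in the *Smo* cKO library. Under all these settings between 4 and 8 genes were lower past the fold limit in neutrophil-like cells, a limit of 1.5-fold in 1 setting and 2-fold in the others. In these cells counts of 3 to 84 UMIs per gene limit the precision. The share of all genes past each changed rule was not counted, so the gene counts under these alternatives are descriptions only. With 1 library per genotype no interval covers the spread between animals.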
